A study of Mus musculus with 6 samples.

Results

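The S100 calcium-binding proteins examined here are encoded by 8 mouse genes, S100a1, S100a4, S100a6, S100a8, S100a9, S100a10, S100a11 and S100a13. They were taken by name from the 21965 genes of a count table of mouse lung interstitial macrophages, which live in the tissue around the air spaces. All 8 were found and all 8 had enough counts to be tested. RNA was sequenced after polyA selection from 3 libraries of mice given the yeast β-glucan preparation WGP (1 mg into the peritoneum, a treatment given as 6 days) and from 3 libraries of mice given phosphate-buffered saline (PBS) by the same route. All mice were C57Bl/6, 6 to 8 weeks old, and the lungs were taken on day 7. The macrophages were sorted from digested lungs with antibodies that the labels do not name. Whether a library came from 1 mouse or several is not stated, so p-values rest on the spread from library to library alone, and that spread could be technical. The comparison asks how β-glucan, used as an inducer of trained immunity, changed transcript levels in these cells before metastases form.

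S100 proteins are small EF-hand proteins that mostly work as dimers. Calcium binding exposes a surface that grips target proteins such as annexins and myosin. Some members act inside the cell only, while others are also released and then bind receptors on neighbouring cells. S100A8 and S100A9 pair as calprotectin, an abundant cytosolic complex of neutrophils and monocytes that withholds zinc and manganese from microbes and engages Toll-like receptor 4. In the lung both are known for drawing myeloid cells to sites where tumour cells later settle.

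Totals ran from 18254678 to 20346517 counts per library. The 8 S100 genes together took between 0.118% and 0.208% of them. Levels are CPM, counts scaled to library size after normalisation by the trimmed mean of M-values (TMM). Fold changes are WGP over PBS. The quasi-likelihood test of edgeR was run on 12305 genes, and its p-values were adjusted over all of them after Benjamini and Hochberg, with a threshold of 0.05. Of those genes 31.0% passed, 15.2% as higher and 15.7% as lower after WGP, with a median log2 fold change of -0.02. Of 20 interstitial macrophage genes 3 rose, 5 fell and 12 did not pass, with a median log2 fold change of -0.475. Csf1r, which encodes the CSF1 receptor, averaged 2965 CPM after WGP and 2357 CPM after PBS and rose (log2 fold change 0.33, adjusted p = 0.0071). Fcgr1 (1.035, adjusted p = 0.00012) and Cx3cr1 (0.83, adjusted p = 0.021) rose as well. Mertk, a receptor for dying cells that defines macrophages, averaged only 20.6 CPM after WGP and 166 CPM after PBS (log2 fold change -3.01, adjusted p = 0.00014), and the mannose receptor gene Mrc1 199 CPM after WGP and 841 CPM after PBS (-2.08, adjusted p = 0.01). PBS replicate 3 stood apart in its Y-linked transcripts, which summed to 10.6 CPM there, against 114 and 180 CPM in PBS replicates 1 and 2 and 207 to 229 CPM in the WGP libraries.

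The start regions of the S100 genes that the results turn on are shown from RefSeq's table of promoters (build GRCm38.p6), which held 7 of the 8 genes. Each window runs from 250 bases before to 50 bases after the annotated start. The first is the window of S100a1 on the minus strand, chr3:90514281-90514580, whose capitals mark the 105 bases between its start and the start of S100a13, which is read the other way. In the other windows capitals mark letters that match a searched motif.
S100a1 and S100a13: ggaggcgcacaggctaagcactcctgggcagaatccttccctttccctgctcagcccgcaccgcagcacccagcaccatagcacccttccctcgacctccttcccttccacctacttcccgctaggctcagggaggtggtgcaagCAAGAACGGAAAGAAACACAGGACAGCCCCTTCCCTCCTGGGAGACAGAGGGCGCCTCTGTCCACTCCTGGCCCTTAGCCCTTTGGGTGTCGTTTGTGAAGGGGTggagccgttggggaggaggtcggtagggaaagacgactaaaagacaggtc
S100a4 (plus strand, chr3:90603520-90603819): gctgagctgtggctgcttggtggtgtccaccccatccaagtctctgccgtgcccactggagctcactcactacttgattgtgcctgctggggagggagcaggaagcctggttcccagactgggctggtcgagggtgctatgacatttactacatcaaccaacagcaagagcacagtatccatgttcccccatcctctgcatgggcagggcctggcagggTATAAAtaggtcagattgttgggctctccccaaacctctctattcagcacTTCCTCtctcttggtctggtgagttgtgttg
S100a6 (plus strand, chr3:90612644-90612943): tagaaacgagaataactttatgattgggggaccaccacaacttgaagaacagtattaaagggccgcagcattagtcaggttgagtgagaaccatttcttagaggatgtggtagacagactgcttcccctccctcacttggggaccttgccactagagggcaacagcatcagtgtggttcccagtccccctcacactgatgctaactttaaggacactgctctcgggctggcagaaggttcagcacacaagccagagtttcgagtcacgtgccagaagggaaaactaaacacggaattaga
S100a8 (plus strand, chr3:90668821-90669120): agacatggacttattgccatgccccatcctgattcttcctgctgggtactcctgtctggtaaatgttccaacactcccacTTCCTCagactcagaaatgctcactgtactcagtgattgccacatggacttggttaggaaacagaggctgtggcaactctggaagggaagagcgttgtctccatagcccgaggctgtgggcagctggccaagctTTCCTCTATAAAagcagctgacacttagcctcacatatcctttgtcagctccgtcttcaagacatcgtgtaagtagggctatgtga
S100a9 (minus strand, chr3:90695672-90695971): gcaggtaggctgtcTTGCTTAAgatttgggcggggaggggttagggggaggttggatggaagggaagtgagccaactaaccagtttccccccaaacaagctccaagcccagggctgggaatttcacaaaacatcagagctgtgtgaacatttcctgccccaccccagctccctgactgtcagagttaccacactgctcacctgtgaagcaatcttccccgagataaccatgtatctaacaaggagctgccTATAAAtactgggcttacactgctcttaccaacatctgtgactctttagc

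Motifs of 5 kinds were searched on both strands, namely those of a TATA box and of the factors PU.1, C/EBP, AP-1 and STAT. The TATA box, TATAAA, occurred in the windows of S100a4, S100a8 and S100a9, that is in 3 of 7, and in 13.6% of all 32851 promoter windows of the table. It began 31 bases before the start of S100a4, 30 bases before that of S100a8 and at the annotated start of S100a9. The opposite-strand form of the PU.1 motif GAGGAA was present once in the S100a4 window and at 2 places in the S100a8 window, the second directly before TATAAA without sharing a base with it. On either strand the PU.1 motif was in 28.3% of all windows. The C/EBP motif, TTGCNNAA, was found in the S100a9 window and in 10.8% of all windows. The S100a11 window, which is not shown, held the AP-1 motif TGANTCA at 2 places (7.8% of all windows hold it) and the PU.1 motif once. The STAT motif, TTCNNNGAA, in 8.3% of all windows, was in none of the 7, and the windows of S100a1, S100a6 and S100a13 held none of the 5 motifs. Such matches describe letters and not bound sites.

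After WGP, transcripts of S100a4 and S100a6 rose and those of S100a1 fell, while S100a8, S100a9, S100a10, S100a11 and S100a13 did not pass the test. The share of S100 genes that passed, 3 of 8 or 37.5%, stands beside 31.0% over all genes tested, so as a count it is near the background. WGP and PBS libraries did not overlap for the same 3 genes, against 48.1% of all genes tested. The log2 fold changes of the 8 genes ran from -0.89 to 0.83 with a median of 0.05. In these bulk libraries fewer cells of a type and less RNA per cell cannot be told apart.

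**Figure D1:**
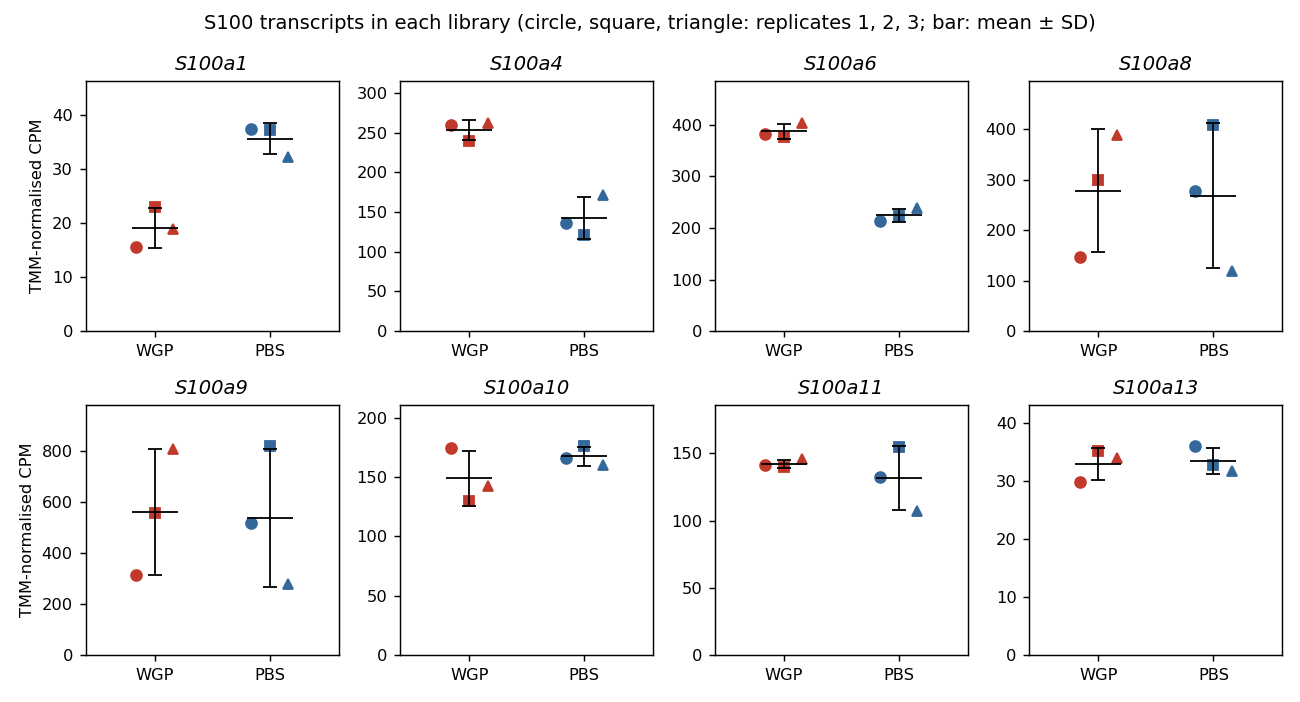
TMM-normalised CPM of the 8 S100 genes (vertical axes, each from 0) in the 3 WGP and the 3 PBS libraries. Points are libraries, with circle, square and triangle for replicates 1, 2 and 3, and bars are mean ± SD. For S100a4 and S100a6 the WGP libraries all lie above the PBS libraries, for S100a1 all below, and for the other 5 genes the groups overlap.

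S100a4 (ENSMUSG00000001020, GRCm38 chromosome 3, 90603771 to 90606045) encodes a protein that binds non-muscle myosin and promotes cell motility, and it is also known as metastasin. It had 259, 239 and 262 CPM in WGP replicates 1, 2 and 3, against 136, 121 and 172 CPM in PBS replicates 1, 2 and 3. The lowest WGP library was above the highest PBS library, which was PBS replicate 3. The means were 254 ± 12.6 CPM after WGP and 143 ± 26.4 CPM after PBS (SD, n = 3 each). This is a 1.78-fold difference, a log2 fold change of 0.83 ± 0.12 (SE; adjusted p = 0.00093). Leaving out any 1 library gave log2 fold changes from 0.71 to 0.98, with adjusted p from 3.8e-05 to 0.0096. Exons of S100a4 overlap those of the predicted gene Gm42674 on the same strand, which had 0 counts in every library. How the counting treated reads in shared exons is not given in the sources used here.

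S100a6 (ENSMUSG00000001025, chromosome 3, 90612882 to 90624181) encodes calcyclin, which binds annexins and the calcyclin-binding protein. Its level was 383, 376 and 404 CPM in WGP replicates 1, 2 and 3, against 213, 223 and 238 CPM in PBS replicates 1, 2 and 3. The groups were clearly apart and each was narrow, with coefficients of variation of 3.72% after WGP and 5.57% after PBS. Its log2 fold change of 0.79 ± 0.07 (adjusted p = 4.5e-05) had the smallest p-value of the 8 genes. The range was 0.74 to 0.83 when any 1 library was left out, with adjusted p up to 0.00066.

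Markers of classical monocytes differed between the groups in the same direction as S100a4 and S100a6. Of 14 tested, 13 rose and 1 did not pass, with a median log2 fold change of 1.40. Their summed level was 23500, 15700 and 20100 CPM in WGP replicates 1, 2 and 3 and 7790, 9150 and 9300 CPM in PBS replicates 1, 2 and 3. The most abundant were Fn1, which encodes fibronectin (log2 fold change 1.06 ± 0.12, adjusted p = 0.00025), Thbs1, which did not pass (0.98 ± 0.38, adjusted p = 0.13), and Plac8 (1.27 ± 0.13, adjusted p = 0.00015). Over the 6 libraries log2 levels of S100a4 and of the marker sum correlated with r = 0.93, and those of S100a6 with r = 0.96; the libraries share the difference between the groups. The alveolar macrophage sum, described with S100a1, ran opposite to both (r = -0.98 with S100a4 and -0.99 with S100a6). Within PBS, S100a6 and the marker sum were both lowest in replicate 1 and highest in replicate 3, whereas within WGP the orders differed. S100a4 did not share the order of the marker sum within either group. Of the 14 marker genes 6 had the order of S100a4 within PBS and 2 within WGP. For S100a6 they were 2 within PBS and 2 within WGP. None had the order of S100a4 within both groups, and 1 had that of S100a6. The part of monocytes in the S100a4 and S100a6 results was not tested.

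S100a1 (ENSMUSG00000044080, chromosome 3, 90511034 to 90514392) encodes a calcium sensor best known from heart muscle, where it acts on calcium release. It was at 15.6, 22.9 and 18.9 CPM in WGP replicates 1, 2 and 3, against 37.3, 37.2 and 32.2 CPM in PBS replicates 1, 2 and 3. Every WGP library was below every PBS library. The means were 19.1 ± 3.69 CPM after WGP and 35.6 ± 2.92 CPM after PBS, a log2 fold change of -0.89 ± 0.15 (adjusted p = 0.0014). Without any 1 library the log2 fold change lay between -1.04 and -0.76, with adjusted p up to 0.01.

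S100a13 (ENSMUSG00000042312, chromosome 3, 90514435 to 90524581) starts next to S100a1 on the other strand, within the stretch printed above. The protein takes part in the leaderless export of Fgf1 and interleukin 1 alpha. Its level was 29.8, 35.1 and 33.9 CPM in WGP replicates 1, 2 and 3, against 35.9, 32.8 and 31.7 CPM in PBS replicates 1, 2 and 3. The groups overlapped, and the log2 fold change was -0.02 ± 0.11 (95% interval -0.27 to 0.22, adjusted p = 0.90). The intervals of S100a1 (-1.23 to -0.56) and S100a13 did not overlap, although the starts of the genes lie close together. The starts are 105 bases apart in RefSeq's table of promoters and 43 in GENCODE, which gave the gene coordinates printed here. The difference between the genes was not itself tested.

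Sums of many marker lists ran with S100a1 over the 6 libraries, which share the difference between the groups. Its r was 0.98 with the epithelial and with the eosinophil, basophil and mast cell sum, 0.96 with the alveolar macrophage, dendritic cell and endothelial sums, 0.92 with the B cell sum and -0.99 with the classical monocyte sum. Of 16 alveolar macrophage genes 14 fell and 2 did not pass (median log2 fold change -3.33). Their sum was 1470, 1790 and 1620 CPM in WGP replicates 1, 2 and 3 and 6560, 7830 and 5180 CPM in PBS replicates 1, 2 and 3. The sum was lowest in WGP replicate 1 and highest in WGP replicate 2, as S100a1 was. Within PBS both were lowest in replicate 3. The orders differed in that the sum was highest in replicate 2 and S100a1 in replicate 1. For S100a1 these 2 libraries were nearly tied, at 37.31 CPM in replicate 1 and 37.21 CPM in replicate 2. Within WGP 11 of the 16 genes had the order of S100a1, as had 6 of 14 epithelial and 3 of 19 neutrophil genes. Within PBS, where that order rests on the near tie, 1, 3 and 2 genes of these lists had it. None of the 16 genes had it within both groups, whereas 3 epithelial and 2 neutrophil genes did. The chitinase-like gene Chil3, the most abundant of the alveolar macrophage genes, had 751 CPM after WGP and 3478 CPM after PBS. Of 13 epithelial genes tested 10 fell, with sums of 18.5, 85.2 and 80.3 CPM in the WGP libraries and 546, 828 and 410 CPM in the PBS libraries. Cardiac muscle genes, which were checked because S100a1 is abundant in the heart, summed to 6.45, 9.50 and 4.54 CPM after WGP and 17.4, 11.1 and 16.4 CPM after PBS, below S100a1 itself in each library, and none of the 7 tested passed. The median log2 fold change of those 7 was -1.18. The cardiac sum was lower in every WGP than in every PBS library and had r = 0.85 with S100a1 over the 6 libraries. The part of the cells of all these lists in the S100a1 result was not tested.

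S100a8 (ENSMUSG00000056054, chromosome 3, 90668978 to 90670035) and S100a9 (ENSMUSG00000056071, chromosome 3, 90692632 to 90695721) encode the calprotectin subunits. S100a8 had 147, 299 and 388 CPM in WGP replicates 1, 2 and 3, against 278, 407 and 120 CPM in PBS replicates 1, 2 and 3. S100a9 had 314, 556 and 808 CPM in the same WGP libraries, against 519, 818 and 278 CPM in the PBS libraries. Both were low in WGP replicate 1 and PBS replicate 3 and high in WGP replicate 3 and PBS replicate 2, so the groups overlapped almost fully. The log2 fold changes were 0.05 ± 0.61 for S100a8 (95% interval -1.59 to 1.69, adjusted p = 0.96) and 0.06 ± 0.56 for S100a9 (-1.45 to 1.56, adjusted p = 0.95). These intervals leave room for changes of over 2-fold in either direction. The direction turned when 1 of several libraries was left out, to -0.31 for S100a8 and -0.26 for S100a9 without PBS replicate 3 and to -0.26 and -0.30 without WGP replicate 3. Without PBS replicate 2 they were 0.48 and 0.48, and without WGP replicate 1 S100a8 was at 0.36. Leaving out WGP replicate 2 gave -0.00091 for S100a8.

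The pair varied far more between replicates than most genes of similar level. The coefficient of variation of S100a8 was 43.8% among the WGP and 53.7% among the PBS libraries, and that of S100a9 was 44.2% and 50.3%. The median over genes of at least 100 CPM was 5.71% for WGP (2330 genes) and 6.02% for PBS (2201 genes). Only 0.558% of these genes varied more than S100a8 after WGP, and 0.136% after PBS. The ratio of S100a8 to S100a9 counts stayed narrow over the same libraries, at 0.469, 0.538 and 0.480 in WGP replicates 1, 2 and 3 and 0.535, 0.498 and 0.431 in PBS replicates 1, 2 and 3.

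The summed neutrophil markers, but not most of the single genes, had the order of S100a8 and S100a9 within each group. The 19 genes of the list summed to 1770, 2160 and 2860 CPM in WGP replicates 1, 2 and 3 and 1890, 2510 and 1330 CPM in PBS replicates 1, 2 and 3. Only 6 of the 19 genes, Csf3r, Cxcr2, Mmp9, Retnlg, Ngp and Ltf, had that order within both groups, 7 had it within WGP and 13 within PBS. Mmp8 ran the other way within WGP, at 210, 165 and 151 CPM in replicates 1, 2 and 3, and Trem1 was lowest in WGP replicate 2 (296, 271 and 463 CPM). Within PBS 14 of 16 alveolar macrophage genes had the order of S100a8 and S100a9 as well, and within WGP 2 of them. Of 14 epithelial genes 6 had that order within WGP, 6 within PBS and 4 within both, so it was not particular to neutrophil genes. Over the 6 libraries the log2 neutrophil sum correlated with S100a8 at r = 0.93 and with S100a9 at r = 0.94. Csf3r, the receptor for granulocyte colony-stimulating factor and the most abundant of the list, had 725, 1022 and 1221 CPM in WGP replicates 1, 2 and 3 and 760, 939 and 583 CPM in PBS replicates 1, 2 and 3. Ly6g, the surface antigen that defines mouse neutrophils, was at only 1.85, 1.58 and 3.28 CPM in the WGP libraries and 1.17, 3.27 and 1.14 CPM in the PBS libraries. Of the 18 neutrophil genes tested Prtn3, Mmp8 and Cd177 rose, Wfdc21 fell and 14 did not pass; without PBS replicate 1 the adjusted p of Mmp8 was 0.077, without PBS replicate 3 0.056 and without WGP replicate 2 0.05. The part of neutrophils in the S100a8 and S100a9 levels was not tested.

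**Figure D2:**
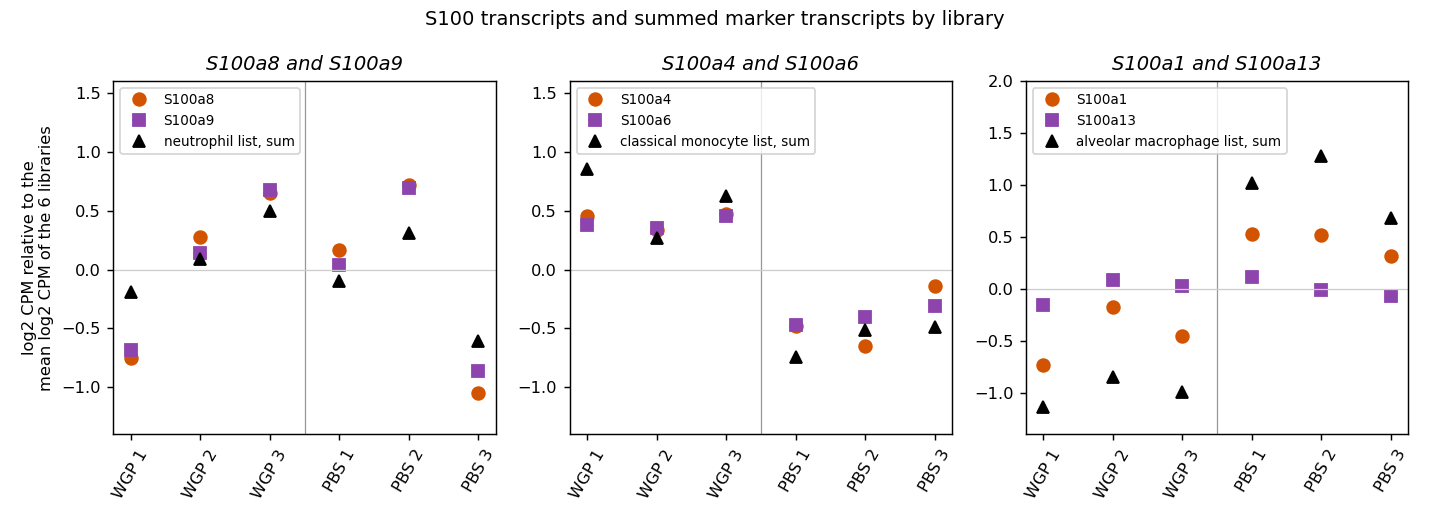
Log2 CPM in each library relative to the mean log2 CPM of the 6 libraries (vertical axes) for S100a8 and S100a9 with the neutrophil sum, S100a4 and S100a6 with the classical monocyte sum, and S100a1 and S100a13 with the alveolar macrophage sum. WGP libraries are left and PBS libraries right of the grey line. S100a8, S100a9 and the neutrophil sum share their order within both groups, while S100a13 stays near 0 where S100a1 and the alveolar macrophage sum part by group.

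S100a10 (ENSMUSG00000041959, chromosome 3, 93555080 to 93564643) encodes p11, the partner of annexin A2 that does not need calcium for binding. It had 175, 130 and 143 CPM in WGP replicates 1, 2 and 3, against 166, 176 and 161 CPM in PBS replicates 1, 2 and 3. WGP replicate 1 lay within the PBS range and the other two WGP libraries below it. The log2 fold change was -0.17 ± 0.10 (95% interval -0.40 to 0.06, adjusted p = 0.25). Without WGP replicate 1 it was -0.30 and passed (adjusted p = 0.027); it did not pass under the other 16 alternatives.

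S100a11 (ENSMUSG00000027907, chromosome 3, 93520488 to 93526287), whose product binds annexin A1, had 142, 140 and 146 CPM in WGP replicates 1, 2 and 3, against 132, 155 and 107 CPM in PBS replicates 1, 2 and 3. The WGP libraries were close together inside the wider PBS range, and the log2 fold change was 0.11 ± 0.12 (95% interval -0.15 to 0.37, adjusted p = 0.49). Without PBS replicate 3 it was -0.02. Over the 6 libraries S100a11 and the neutrophil sum had r = 0.86. A processed pseudogene, S100a11-ps, is annotated, so reads of S100a11 may be shared or lost in counting.

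**Figure D3:**
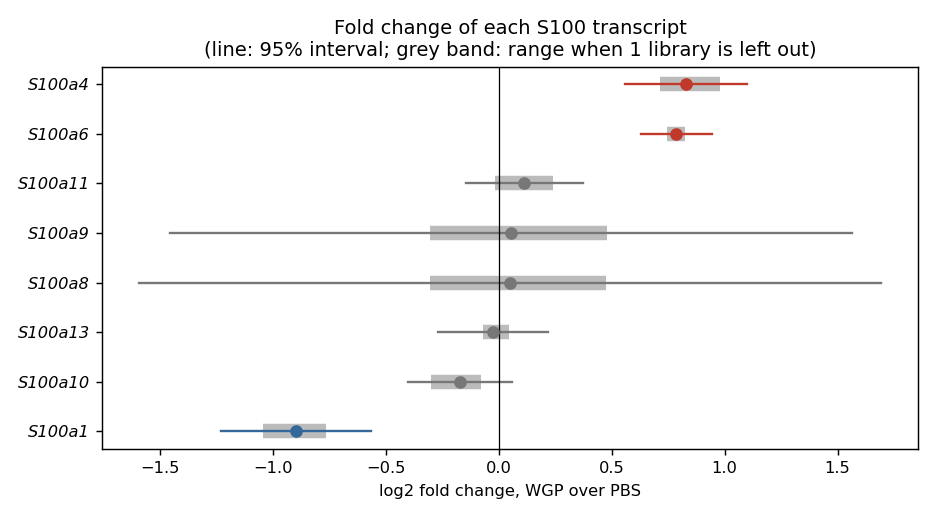
Log2 fold change, WGP over PBS (horizontal axis), of the 8 S100 genes, ordered from the highest to the lowest. Points are estimates, red for higher, blue for lower and grey for not passed, lines are 95% intervals and grey bands the range when any 1 library is left out. S100a4 and S100a6 lie to the right of 0 and S100a1 to the left with their whole intervals, and those of S100a8 and S100a9 are the widest.

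Per kb of exon sequence, S100a9 was the most abundant of the family in both groups, at 1072 ± 474 CPM per kb after WGP and 1031 ± 518 after PBS (SD, n = 3 each). That placed it 16th of 12305 genes after WGP and 21st after PBS. After WGP the order went on with S100a4 (434 ± 21.5), S100a8 (401 ± 175), S100a6 (284 ± 10.6), S100a11 (278 ± 6.04), S100a10 (123 ± 19.2), S100a13 (46.1 ± 3.89) and S100a1 (27.6 ± 5.32). Of these neighbours S100a4 and S100a8, S100a8 and S100a6, and S100a6 and S100a11 overlapped in their libraries' values. After PBS the order was S100a9, S100a8 (387 ± 208), S100a11 (257 ± 46.3), S100a4 (245 ± 45.2), S100a6 (165 ± 9.16), S100a10 (138 ± 6.39), S100a1 (51.3 ± 4.20) and S100a13 (46.8 ± 3.12). There S100a9 and S100a8, S100a8 and S100a11, S100a11 and S100a4, and S100a1 and S100a13 overlapped. Compared within libraries, S100a9 was above S100a8 and S100a1 above S100a13 in each PBS library. Likewise S100a6 was above S100a11 in each WGP library. The other overlapping pairs changed order between libraries. Per kb of the longest transcript in place of all exons, S100a6 reached 495, S100a10 218, S100a4 510 and S100a8 558 CPM per kb after WGP, which put S100a8 above S100a4. After PBS S100a8 then reached 539, S100a6 287, S100a4 287 and S100a10 245 CPM per kb, and S100a11, at 257 as before, stood behind S100a6 and S100a4.

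Other S100 genes were hardly expressed. Of 9 in the table, S100a2 and S100z had no count in any library, which allows at most 3 counts in each. S100a3 had 2, 4 and 0 counts in WGP replicates 1, 2 and 3 and 0 in each PBS library, S100a7a had 0, 9 and 2 counts in the WGP libraries and 0 in each PBS library, and S100a5 had 6 counts in PBS replicate 2 alone. S100a14 had 4 counts in PBS replicate 1 alone, S100b was counted in PBS replicate 3 alone (0.333 CPM), and S100g had at most 25 counts in a library. S100a16 was the only one of them with enough counts to test. It had 18, 20 and 18 counts in WGP replicates 1, 2 and 3 and 99, 46 and 50 counts in PBS replicates 1, 2 and 3, a log2 fold change of -1.64 ± 0.48 (adjusted p = 0.024), which no longer passed without PBS replicate 1 (0.17) or WGP replicate 3 (0.061), with limma-voom (0.052), with Y-linked transcripts as covariate (0.053) or with PBS replicate 2 as the only PBS library (0.43).

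All 8 genes lie on chromosome 3, in a stretch of 3.05 Mb. Those from S100a1 to S100a9 are within 185 kb, S100a8 and S100a9 start 26.7 kb apart, and S100a11 and S100a10 lie 2.82 Mb further on. The table held 61 other genes between the S100 genes, most of them small proline-rich, late cornified envelope and other genes of the skin barrier. Of those 58 had no count in any library and 2 could be tested, Pglyrp4, which did not pass (adjusted p = 0.70), and Tchh, which encodes trichohyalin and fell at a low level (1.22 CPM after WGP and 3.59 CPM after PBS, log2 fold change -1.56 ± 0.43, adjusted p = 0.019). The call of Tchh was lost without PBS replicate 1 (0.083) or PBS replicate 3 (0.052).

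Genes whose levels ran most like those of a member were ranked by Pearson's r of log2 CPM over the 6 libraries, among 9339 genes of at least 5 CPM. The gene most like S100a8 was S100a9 (r = 0.991), and S100a8 was the one most like S100a9. After them came Txndc15 (0.981 to S100a8, 0.977 to S100a9), Ptpn2 (0.971 to S100a8) and Mob3a (0.9754 to S100a9). For S100a1 they were Slc7a2, Ly75 and the alveolar macrophage gene Atp6v0d2 (r between 0.9988 and 0.9992), all of which fell; each of these 3 calls was lost when WGP replicate 3 was left out, and likewise for PBS replicate 1 and for PBS replicate 2. For S100a4 they were Dennd1a, Mcts1 and Bcr, and for S100a6 Rere, Gnai2 and Atp6v0a2, all above 0.998. Next to S100a10 stood Mapkap1, Slc15a2 and Fastkd1 (0.970 to 0.979), next to S100a11 Lcn2, which is also on the neutrophil list, Ddx46 and Hivep1 (0.969 to 0.984), and next to S100a13 Mbd1, Zdhhc24 and Cdk2ap2 (0.9507 to 0.9748). Among the members themselves S100a4 and S100a6 had r = 0.962, and S100a1 ran opposite to both (-0.944 and -0.945). These are descriptions over 6 libraries of similar depth, 3 WGP and 3 PBS, so r includes the difference between the groups.

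Receptors for released S100 proteins were lower more often than higher. Of 10 tested 4 fell, 1 rose and 5 did not pass, with a median log2 fold change of -0.26, beside -0.02 and 15.7% lower over all genes. With library sizes alone 6 fell, with Bsg and Alcam in addition. In place of 4, 5 fell with upper quartile scaling, with DESeq2 and without WGP replicate 2. The same count of 5 came without a filter on low counts and with a filter of at least 1 CPM in 3 libraries. Tlr4, the receptor for S100A8 and S100A9, fell to 36.7, 37.1 and 33.1 CPM in WGP replicates 1, 2 and 3, against 62.7, 64.1 and 45.1 CPM in PBS replicates 1, 2 and 3 (log2 fold change -0.69 ± 0.13, adjusted p = 0.0033). Ager, which encodes the receptor for advanced glycation end products and is best known from alveolar type I cells, fell to 3.93, 5.18 and 4.43 CPM after WGP, against 10.98, 15.2 and 8.41 CPM after PBS (-1.35 ± 0.26, adjusted p = 0.0029). The scavenger receptor gene Cd36 (-1.10 ± 0.08, adjusted p = 1.8e-05) and the adhesion molecule gene Mcam (-3.49 ± 0.46, adjusted p = 0.0025) fell too. Myd88, the adaptor of Toll-like receptors, rose (0.53 ± 0.11, adjusted p = 0.0049); its exons overlap those of Acaa1a. The co-receptor gene Cd14 had 865, 556 and 791 CPM in the WGP libraries and 508, 779 and 505 CPM in the PBS libraries and did not pass (adjusted p = 0.42).

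Intracellular partners did not move as a block. Of 9 annexins tested Anxa6 rose (0.56 ± 0.09, adjusted p = 0.0011), Anxa4 (-0.65 ± 0.08, adjusted p = 0.00019) and Anxa5 (-0.26 ± 0.07, adjusted p = 0.016) fell and 6 did not pass, with a median of 0.21. Over all genes 15.2% were higher and 15.7% lower, so as a count the annexin calls are near the background. Anxa5 no longer passed without WGP replicate 3 (0.071), and without WGP replicate 2 Anxa1 and Anxa3 passed as higher as well. With DESeq2 or without PBS replicate 3, 2 annexins were higher and 2 lower. With Y-linked transcripts as covariate 2 were higher and 1 lower. Anxa2, the partner of S100a10, had 933, 844 and 902 CPM in WGP replicates 1, 2 and 3 and 967, 1053 and 880 CPM in PBS replicates 1, 2 and 3 and did not pass (adjusted p = 0.32).

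Among 11 other partners 7 fell, 1 rose and 3 did not pass, with a median of -1.36, beside 15.7% lower and 15.2% higher over all genes. The scaffold gene Ahnak, whose product joins the S100A10 and annexin A2 complex, rose (0.53 ± 0.08, adjusted p = 0.00053). Cacybp, the calcyclin-binding protein gene, fell (-0.91 ± 0.18, adjusted p = 0.0063) while S100a6 rose. The smallest p-values among those that fell belonged to the lamin gene Lmna (-2.55 ± 0.15), Fkbp4 (-1.36 ± 0.12), Stip1 (-1.61 ± 0.14) and Ahnak2 (-2.34 ± 0.29), with adjusted p between 2.5e-05 and 0.00025; Fkbp4 and Stip1 encode cochaperones of heat shock protein 90. Myh9, the non-muscle myosin heavy chain bound by S100A4, had 2080, 2011 and 2151 CPM in the WGP libraries and 2146, 2235 and 2001 CPM in the PBS libraries (-0.03 ± 0.07, adjusted p = 0.77).

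In the plasminogen system, to which S100A10 brings plasminogen at the cell surface, 3 of 7 genes tested fell, 1 rose and 3 did not pass (median -0.56). Over all genes tested 15.7% were lower and 15.2% higher. The activator gene Plau (-1.09 ± 0.16, adjusted p = 0.00068), Plgrkt (-0.56 ± 0.12, adjusted p = 0.0054) and Serpine2 (-4.06 ± 0.93, adjusted p = 0.0076, at 0.264 CPM or less in each WGP library) fell, and Eno1, which encodes a glycolytic enzyme that also binds plasminogen, rose (0.52 ± 0.06, adjusted p = 0.00023). Plaur, the urokinase receptor gene, was at 875, 726 and 952 CPM in the WGP libraries and 772, 981 and 810 CPM in the PBS libraries (adjusted p = 0.98).

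Of the export partners of S100a13, 3 could be tested and 2 fell, Fgf1 (-2.63 ± 0.33, adjusted p = 0.00026) and Il1a (-1.80 ± 0.21, adjusted p = 0.00017), whereas Sphk1, below 1 CPM in each library, did not pass (adjusted p = 0.19). Fgf1 was at 1.24, 1.00 and 1.15 CPM in WGP replicates 1, 2 and 3 and 5.54, 8.46 and 6.99 CPM in PBS replicates 1, 2 and 3. Exons of Il1a overlap those of Gm14023. Among 16 EF-hand calcium sensors tested 3 rose, 1 fell and 12 did not pass (median -0.0031), beside 15.2% higher and 15.7% lower over all genes. Under scaling by upper quartiles, or by library sizes alone, 3 fell in place of 1, with Calm2 and Gca besides Chp1, and the median was -0.063 with the first and -0.10 with the second. Plcg2 (0.64 ± 0.07, adjusted p = 0.00014), Cib1 (0.48 ± 0.11, adjusted p = 0.0067) and Stim2 (0.43 ± 0.11, adjusted p = 0.013) rose and Chp1 fell (-0.39 ± 0.13, adjusted p = 0.049). The call of Stim2 was lost without PBS replicate 1 (0.061), and that of Chp1 without any 1 library other than PBS replicate 3 (0.082 to 0.13).

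**Figure D4:**
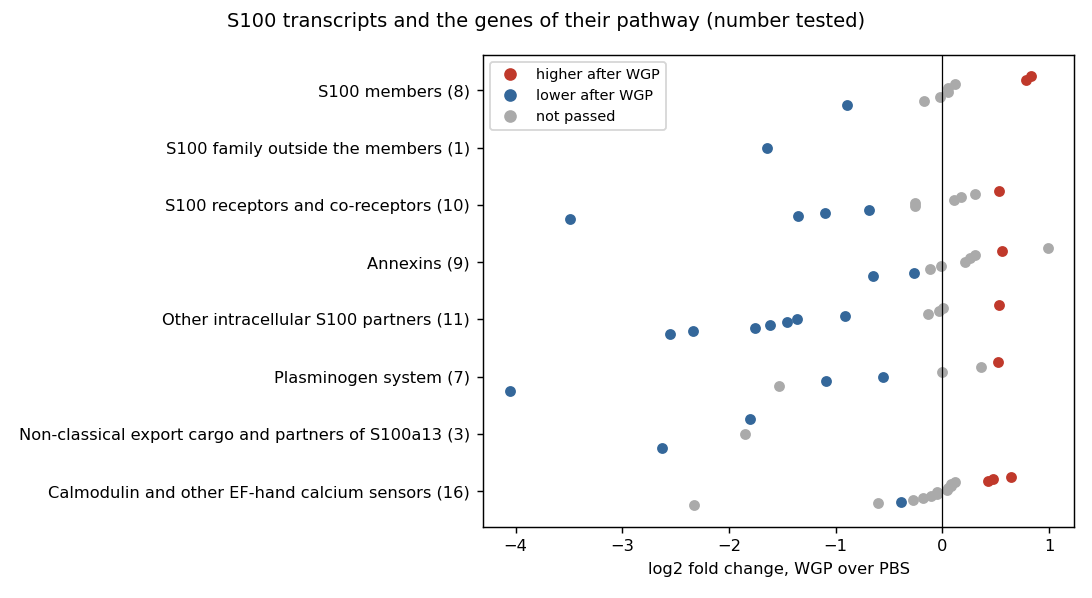
Log2 fold change, WGP over PBS (horizontal axis), of the tested genes of each list, 1 point a gene, with the number tested beside the name of the list. Red points rose, blue points fell and grey points did not pass. The 8 S100 genes stay between -0.89 and 0.83, whereas genes of the receptor, annexin, partner and plasminogen lists reach from -4.06 to 0.99.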

How the data were processed

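The authors deposited raw whole-number counts for each gene. The tools HTSeq 0.10.0 and FastQC 0.10.1, and as builds GRCm38 and mm10, are named per the submitters' processing notes. Aligner, annotation and strand setting: not given in the sources used here. GENCODE M21 (GRCm38) matched 21939 of 21965 identifiers (99.9%) and gave symbols, coordinates and exon lengths. The 3 WGP and 3 PBS libraries were fitted with edgeR 4.0.16 (R 4.3.3), after filterByExpr and TMM scaling, by robust glmQLFit and the two-sided quasi-likelihood F test with Benjamini-Hochberg adjustment. SE is the log2 fold change divided by the square root of F, and 95% intervals use its degrees of freedom. A count of 0 allows up to 3 counts, which covers counting error only. No exact test of 3 against 3 libraries can go below 0.1, so genes were tested in fits across all genes only. For correlations between genes, log2 CPM values were taken at a prior count of 2. Those with marker sums used log2 of the TMM-normalised CPM without a prior count. Chi-squares between replicates were 14.1 to 26.2 per degree of freedom, well beyond sampling noise. The fit was tested on simulated data. DESeq2 1.42.0 and limma 3.58.1 (voom) were alternatives, beside other scalings, filters and libraries left out.

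The members and gene lists were chosen with earlier results of these data known. In each of the plasminogen and EF-hand sensor lists 1 gene is not reported here and was left out of the counts and median. Named genes are all members, S100 genes with counts, up to 4 genes per list and direction by smallest p, called receptors, annexins and plasminogen genes, the 3 genes most like each member and abundant markers. Chosen after their values were seen were Mertk, Mrc1, Trem1, Cxcr2, Mmp9, Retnlg, Ngp, Ltf, Calm2, Gca, Bsg, Alcam, Serpinb2, Ly6g, Prtn3, Mmp8, Cd177, Wfdc21, Cd14, Anxa1, Anxa2, Anxa3, Cacybp, Myh9, Plaur, Sphk1, Pglyrp4, Tchh and Gm42674. Fcgr1 and Cx3cr1 were likewise chosen after their values were seen. The marker lists for T and NK, B, dendritic, endothelial, fibroblast, nonclassical monocyte, mast and red cells are given in the closing section.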

Additional observations from a re-analysis of the deposited data

How the results depend on the processing

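S100a4, S100a6 and S100a1 kept their direction and passed under all 17 alternatives run, with log2 fold changes of 0.71 to 1.08, 0.68 to 0.84 and -1.04 to -0.76. The members called stayed at 2 higher under all of them and at 1 lower, except for 2 lower without WGP replicate 1, a range of 1 to 2 when 1 library was left out. Directions turned for genes that did not pass: S100a8 and S100a9 were at -0.0054 and -0.0030 with upper quartile scaling, -0.052 and -0.049 with library sizes alone, -0.53 and -0.46 when Y-linked transcripts entered as covariate, and -0.55 and -0.55 with PBS replicate 2 as the only PBS library. Their ranges when 1 library was left out were -0.31 to 0.48 and -0.30 to 0.48, those of S100a11 -0.015 to 0.24 and those of S100a13 -0.069 to 0.046. S100a11 turned to -0.088 with the covariate and to -0.12 with PBS replicate 2 alone, where S100a13 was at 0.0074. The cause was not tested. With PBS replicate 2 alone its spread is assumed to be that of the WGP libraries.

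Over all genes, 1874 were higher and 1935 lower. With library sizes alone 1236 were higher and 2460 lower (33.4% in place of 49.2% of the calls were higher). That scaling put the median of all genes at -0.12, so S100a8 at -0.052 lay above it. Leaving out 1 library gave 1202 to 1753 higher and 1289 to 1964 lower genes, and PBS replicate 2 alone 993 and 827. Same-numbered replicates did not deviate together (r between -0.08 and -0.05). With 3 libraries in each group this gave no sign that the numbers pair the libraries, but it cannot exclude it. With the replicate number as a block 1584 genes were higher and 1601 lower, and the members called were 2 higher and 1 lower as without it. Under the block S100a16 (adjusted p = 0.067) and Chp1 (0.094) no longer passed and Serpinb2 did (0.048). Per kb of the longest transcript S100a4 was at 510, S100a6 at 495 and S100a10 at 218 CPM after WGP. Depth did not limit the members, at 277 counts or more in each library, whereas other S100 genes were too low to test.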

Other observations

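Levels of the other cell types in the sort are given as values. Of 10 nonclassical monocyte genes 1 rose and none fell, with sums of 9030, 9780 and 11200 CPM in WGP replicates 1, 2 and 3 and 9490, 10000 and 11300 CPM in PBS replicates 1, 2 and 3. Of 11 dendritic cell genes 5 fell, with sums of 125, 187 and 179 CPM after WGP and 472, 361 and 446 CPM after PBS. Of 10 endothelial genes 7 fell (98.1, 120 and 119 CPM after WGP, 319, 342 and 324 CPM after PBS), and of 12 fibroblast and smooth muscle genes 3 fell. T and NK cell genes summed to 24.9, 82.7 and 57.5 CPM after WGP and 164, 72.8 and 144 CPM after PBS, with 2 of 10 lower. B cell genes summed to 61.7, 111 and 85.5 CPM after WGP and 130, 128 and 147 CPM after PBS, with 1 of 7 lower. Eosinophil, basophil and mast cell genes stayed at 10.1 CPM or less in WGP libraries and at 19.3 CPM or less in PBS libraries, with Epx and Fcer1a at 0 in every library. None of 7 erythroid and platelet genes tested with edgeR's quasi-likelihood test passed.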
